A study of Homo sapiens with 17 samples.

Results

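The response of KYSE140 cells to a degrader of bromodomain proteins was set against their response to disruption of the SOX2 gene, gene by gene, in 9 of the 17 libraries of the series. The quantity described is a difference of 2 effects. The ARV-771 effect is the log2 fold change of 2 libraries treated with 0.5 µM ARV-771 for 6 h against 2 libraries given DMSO for 6 h. The SOX2 knockout effect is the log2 fold change of 3 libraries with CRISPR guides SOX2#2, SOX2#3 and SOX2#4 against 2 control libraries, whose guides cut AAVS1 in 1 case and a chromosome 2 site (Chr2.2) in the other. These 9 libraries were chosen by their labels and by no measured value, and the effects share no control library. KYSE140 is an esophageal squamous carcinoma line, and every group used here is of that line.

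SOX2 is a transcription factor that binds enhancers and keeps the identity of progenitor cells in the foregut, and its gene is often gained in squamous carcinomas. BET proteins are bromodomain proteins that read acetylated histones and help release RNA polymerase II from its pause near gene starts. Genes with strong enhancers, among them genes of lineage factors, are known to be sensitive to BET loss. A BET degrader therefore lowers SOX2 together with other BET-dependent genes, whereas SOX2 guides target SOX2, and the comparison asks which programmes move in both and which move with BET loss only.

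The groups limit the comparison in several ways. Guides cut the coding sequence, so SOX2 RNA in these libraries is no measure of functional SOX2 protein, and each knockout library is a population carrying 1 guide. The perturbations differ in kind, in vector and in time since they began, and these cannot be told apart from the difference of effects. Replicates were different guides, or cultures A and B, so that p-values measure the spread between these libraries. SOX2 guide 4 stood apart in the chi-square per degree of freedom, the spread of counts relative to counting error. It was 13.4 between guides 2 and 4, 6.79 between guides 3 and 4 and 2.86 between guides 2 and 3. Pairs in the other groups had 2.19 to 3.05. In bulk RNA, fewer cells of a type and less RNA per cell cannot be told apart. Total expected counts, the reads per gene as estimated by RSEM, ranged from 7260730 to 13556938 per library.

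All 8 squamous markers checked were above 1 TPM (transcript abundance on a fixed total per library) in every library, and their summed level was 6480 to 6790 TPM with DMSO, 6140 to 6440 TPM under ARV-771, 8120 to 8130 TPM with control guides and 26500 to 31600 TPM with SOX2 guides. Markers of endothelium stayed below 1 TPM in sum, and those of glandular epithelium at most 0.36 TPM. The leukocyte list summed to 54.7 to 71.3 TPM with SOX2 guides against 4.27 to 4.84 TPM with control guides. CD68 alone accounted for 53.8 to 70.2 TPM of this sum, while PTPRC, the defining leukocyte gene, was at most 0.23 TPM. The fibroblast list summed to 39.5 to 44.2 TPM with SOX2 guides against 10.2 to 19.2 TPM, with LUM at 0 throughout and 1 of 6 members above 1 TPM in every library. The part of other cells in the results was not tested.

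The scale of the ARV-771 effect decides what "rose" means. Log2 fold changes below were fitted with edgeR on TMM scaling, which centres the bulk of genes near 0, and a call required more than a 1.5-fold change together with a Benjamini-Hochberg adjusted p below 0.05. TPM, by contrast, has a fixed total, and the share of reads in the 10 most abundant genes was 9.92% to 10.14% under ARV-771 against 6.73% to 7.22% with DMSO. The median ARV-771 effect of all 14612 genes tested was 0.05 with TMM, -0.50 with library size only, -0.58 with limma on log2(TPM + 1) and -1.03 when scaled to the mitochondrially encoded genes. Falls called with TMM are therefore smaller than the TPM values show, and rises called with TMM are relative to the median gene.

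SOX2 RNA was lowered by both perturbations, and more so by ARV-771, which does not rank the loss of functional SOX2 protein. It stood at 236 and 223 TPM in the DMSO libraries and at 9.8 and 10.5 TPM under ARV-771. Libraries with control guides had 397 and 428 TPM, and SOX2 guides 2, 3 and 4 left 103, 125 and 221 TPM. No library of a treated group overlapped its controls, and guide 4 retained the most SOX2 RNA. The ARV-771 effect was -3.66 (SE 0.25), the knockout effect -1.27 (SE 0.18) and their difference -2.39 (SE 0.31), with an edgeR adjusted p of 6.1e-06 for the difference. The baseline of SOX2 was thus lower in the DMSO libraries than with control guides. SOX2-OT, the long noncoding RNA gene that surrounds SOX2, went the other way in size. Its levels were 61.3 and 54.2 TPM with DMSO, 21.2 and 20.1 TPM under ARV-771, 49.2 and 59.3 TPM with control guides and 4.09, 3.63 and 7.8 TPM with SOX2 guides. The knockout effect of -2.87 (SE 0.17) on SOX2-OT exceeded the ARV-771 effect of -0.75 (SE 0.15), with an adjusted p of 8.5e-07 for the difference. SOX2-OT and SOX2 overlap on one strand, so the assignment of reads between them is uncertain.

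Across all genes, the effects were almost unrelated. ARV-771 changed 7420 of the 14612 genes tested, of which 3502 rose (24.0% of genes tested) and 3918 fell (26.8%). SOX2 knockout changed 4301 genes, of which 2343 rose (16.0%) and 1958 fell (13.4%). The difference of effects was called for 8166 genes, with 3822 higher under ARV-771 (26.2%) and 4344 lower (29.7%). Of the 1958 genes that fell in the knockout, 469 also fell under ARV-771. That is 24.0% of the knockout falls, near the 26.8% of all genes that fell under ARV-771. They were 469 of the 3918 genes that fell under ARV-771. A further 591, or 30.2%, were called as risen under ARV-771. Of the 2343 genes that rose in the knockout, 414 (17.7%) rose and 648 (27.7%) fell under ARV-771.

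Shared falls stayed below the background on each scale, whereas the comparison of rises turned with the scale. The share of knockout falls that also fell under ARV-771 was 23.1% against 26.0% of all genes with RLE factors, 38.7% against 41.8% with library size only, 59.9% against 61.8% with mitochondrial scaling and 41.5% against 45.7% with limma on log2(TPM + 1). Only without a filter on low counts did it exceed the share of all genes tested, at 24.6% against 16.1%, where many genes too low to be called joined the denominator. The share of knockout falls that rose under ARV-771 was above that of all genes with TMM but below it at 1.65% against 2.44% with library size, 0.174% against 0.438% with mitochondrial scaling and 0.318% against 0.496% with limma. Shared rises turned the other way, at 2.96% against 2.44%, 0.872% against 0.438% and 1.32% against 0.496% in the same order. The share of knockout rises that fell under ARV-771 was 0.8 percentage points above the background with TMM and 5.9 points below it with library size (35.9% against 41.8%). The Spearman correlation of the effects across genes lay between -0.07 and -0.04 over the 5 scalings and Pearson's r between 0.02 and 0.08, as a description over 13904 to 14612 genes that are not independent replicates.

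**Figure D1:**
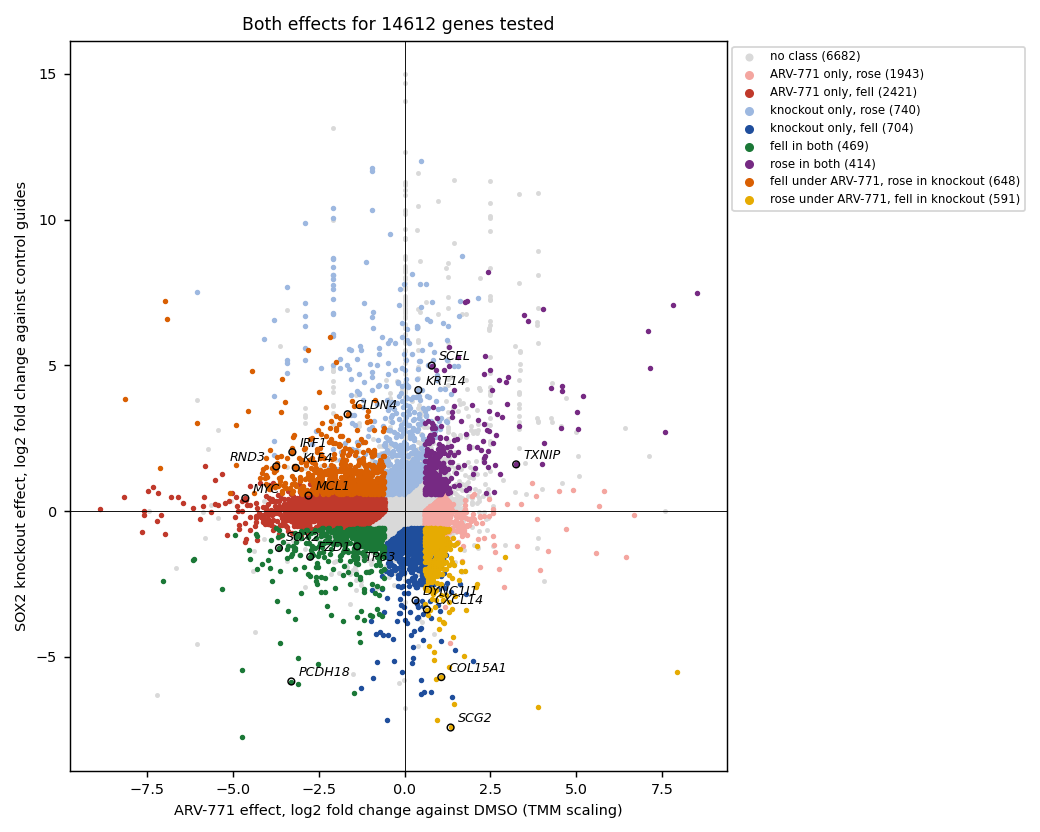
ARV-771 effect (horizontal axis, log2 fold change with TMM scaling) against SOX2 knockout effect (vertical axis, log2 fold change) for the 14612 genes tested, 1 point a gene, coloured by response class with the number of genes in each. Calls fill all 4 quadrants and no diagonal stands out. Fitted values of genes near 0 counts in a group depend on the prior count and are no bound.

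Genes were sorted into 8 response classes. A gene was taken as particular to 1 perturbation only if the difference itself was called and the other effect was not. Alongside the 469 genes that fell in both and 414 that rose in both, 648 fell under ARV-771 and rose in the knockout and 591 did the reverse. ARV-771 alone lowered 2421 genes and raised 1943, SOX2 knockout alone lowered 704 and raised 740, and 6682 genes had no class.

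The genes that fell in both held part of the squamous stem cell circuit. TP63, the p53-family factor of basal squamous cells, stood at 145 and 153 TPM with DMSO and at 29.6 and 32.3 TPM under ARV-771. It stood at 167 and 182 TPM with control guides and at 56.9, 64.3 and 78.5 TPM with SOX2 guides. All treated libraries lay below all controls, with guide 4 the highest of the guides for TP63 as for SOX2. Its effects were -1.38 (SE 0.08) and -1.21 (SE 0.07), and their difference of -0.17 (SE 0.11) did not pass the test with TMM (adjusted p = 0.182). It was called, lower under ARV-771, by limma on log2(TPM + 1) (-0.85) and with mitochondrial scaling (-1.31). On the TPM scale the ARV-771 effect on TP63 was -2.23. SOX21, a relative of SOX2, fell from 14.3 and 13.7 TPM to 0.49 and 0.57 TPM under ARV-771. With SOX2 guides SOX21 was at 4.6, 4.03 and 10.6 TPM against 36.2 and 41.6 TPM in the controls. Its effects were -3.87 (SE 0.39) and -2.39 (SE 0.22).

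Further members of this class described here are PCDH18, FZD1 and IFRD1. PCDH18, a protocadherin, stood at 10.3 and 11.5 TPM with DMSO, 0.86 and 0.6 TPM under ARV-771, 9.07 and 9.98 TPM with control guides and 0.11, 0.07 and 0.26 TPM with SOX2 guides. The knockout lowered PCDH18 further than ARV-771 did, by 5.85 against 3.30 on the log2 scale, with an adjusted p of 4.5e-06 for the difference. This call was lost with limma on log2(TPM + 1), where the difference for PCDH18 was 0.42 (adjusted p = 0.234), and the knockout libraries held 2 to 6 counts. FZD1, a WNT receptor, stood at 58.9 and 61 TPM with DMSO and at 4.69 and 5.31 TPM under ARV-771. With control guides it was at 49.5 and 41.4 TPM, and with SOX2 guides at 11.7, 12.9 and 15.5 TPM. Here ARV-771 had the larger effect, at -2.75 (SE 0.11) against -1.57 (SE 0.10). IFRD1, a transcriptional coregulator, fell by 1.15 (SE 0.07) and by 1.20 (SE 0.06) on the log2 scale, from 160 and 157 to 40.7 and 44.6 TPM and from 351 and 356 to 121, 126 and 142 TPM. The difference for IFRD1 was 0.04 (SE 0.09), and -1.11 with mitochondrial scaling.

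The 250 bases before the RefSeq start (GRCh38.p14) of SOX2 and of the 4 leading genes of this class are shown, because the RNA of these genes fell under both perturbations. Capitals mark matches to a SOX-type motif, ACAATG or ACAAAG on either strand, which 21.2% of 35116 promoters hold in a window of this length.
SOX2, chr3:181711675-181711924, plus strand: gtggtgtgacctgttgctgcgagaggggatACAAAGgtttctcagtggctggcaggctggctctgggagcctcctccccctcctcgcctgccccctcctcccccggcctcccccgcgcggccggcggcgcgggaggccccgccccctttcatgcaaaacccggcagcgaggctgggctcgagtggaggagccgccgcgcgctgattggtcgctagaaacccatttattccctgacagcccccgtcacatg
TP63, chr3:189631139-189631388, plus strand: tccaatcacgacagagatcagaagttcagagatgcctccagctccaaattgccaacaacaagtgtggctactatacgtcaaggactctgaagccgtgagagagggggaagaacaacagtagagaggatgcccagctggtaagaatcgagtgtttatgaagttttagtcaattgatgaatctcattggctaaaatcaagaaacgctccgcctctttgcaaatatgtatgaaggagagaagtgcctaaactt
FZD1, chr7:91264183-91264432, plus strand: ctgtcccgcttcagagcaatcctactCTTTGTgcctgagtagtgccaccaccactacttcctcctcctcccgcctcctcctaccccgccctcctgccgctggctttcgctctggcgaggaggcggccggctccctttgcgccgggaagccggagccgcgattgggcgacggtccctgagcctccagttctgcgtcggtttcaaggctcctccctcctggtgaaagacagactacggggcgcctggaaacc
IFRD1, chr7:112450258-112450507, plus strand: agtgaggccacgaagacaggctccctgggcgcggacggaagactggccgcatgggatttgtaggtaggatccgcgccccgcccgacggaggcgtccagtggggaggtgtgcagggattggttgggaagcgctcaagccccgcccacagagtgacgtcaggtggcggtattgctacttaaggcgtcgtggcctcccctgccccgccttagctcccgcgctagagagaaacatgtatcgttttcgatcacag
PCDH18, chr4:137532495-137532744, minus strand: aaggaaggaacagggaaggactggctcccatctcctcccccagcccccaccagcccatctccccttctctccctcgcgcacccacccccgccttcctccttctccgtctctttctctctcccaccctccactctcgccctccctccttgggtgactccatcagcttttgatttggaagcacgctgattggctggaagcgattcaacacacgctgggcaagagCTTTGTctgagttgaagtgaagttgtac
The SOX2, FZD1 and PCDH18 windows hold 1 match each and those of TP63 and IFRD1 hold 0. A match is a description of letters and was not tested for binding. TP63 has more than one start, and the window is that of 1 start only. Other starts of TP63 are not shown, and which start made its RNA here was not tested.

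Shared falls differed between signalling lists and are set beside the 3.21% of all genes tested that fell in both. List counts with TMM here and below stand beside 26.8% of genes tested that fell and 24.0% that rose under ARV-771. Counts on other scales stand beside other shares. Under ARV-771 41.8% fell and 2.44% rose with library size only, and 61.8% and 0.438% with mitochondrial scaling. With limma on log2(TPM + 1) 45.7% fell and 0.496% rose. In the knockout 13.4% of genes tested fell and 16.0% rose with TMM. Of 43 Hedgehog and WNT genes, 29 fell and 2 rose under ARV-771, 17 fell and 4 rose in the knockout, and 11 fell in both. LGR4, a receptor that strengthens WNT signals, was at 51.2 and 58.5 TPM with DMSO, 16.3 and 17.8 TPM under ARV-771, 20.5 and 20.5 TPM with control guides and 8.82, 8.57 and 10.7 TPM with SOX2 guides. Its effects were -0.86 (SE 0.08) and -0.94 (SE 0.08), and their difference of 0.08 turned to -1.06 for LGR4 with mitochondrial scaling. In the Notch list, 14 of 26 members fell and 3 rose under ARV-771, and 6 fell and 6 rose in the knockout, with 5 of 28 tested fallen in both. In the list of EGFR family members and ligands 1 of 13 tested fell in both. LFNG, which glycosylates Notch receptors, fell from 80.5 and 76.3 to 17.8 and 19.1 TPM under ARV-771. With SOX2 guides LFNG was at 16.1, 16.1 and 14.7 TPM against 51 and 43.7 TPM, and the difference of effects was 0.19 (SE 0.15), or -0.97 with mitochondrial scaling. JAG1, a Notch ligand, fell by 1.09 (SE 0.08) and 0.75 (SE 0.06) on the log2 scale, although some of its expected counts were not whole, so its reads were shared with another gene and its value is uncertain.

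Some genes fell in both but much further with BET loss. CXCL1, a neutrophil chemokine, was at 138 and 132 TPM with DMSO and at 3.24 and 2.11 TPM under ARV-771. It was at 455 and 422 TPM with control guides and at 216, 215 and 216 TPM with SOX2 guides. The difference of effects was -4.13 (SE 0.16). LRIG3, a regulator of growth factor receptors, behaved likewise with effects of -3.57 (SE 0.16) and -0.81 (SE 0.11) and a difference of -2.75 (SE 0.21). BCL2, an inhibitor of cell death, fell in both without falling further under ARV-771. It was low throughout, with 3.26 and 3.33 TPM in DMSO libraries, 0.65 and 1.03 TPM under ARV-771, 4.01 and 6.8 TPM with control guides and 1.76, 2.08 and 2.63 TPM with SOX2 guides. The difference of effects for BCL2 was 0.15 (SE 0.28), and -0.98 with mitochondrial scaling.

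**Figure D2:**
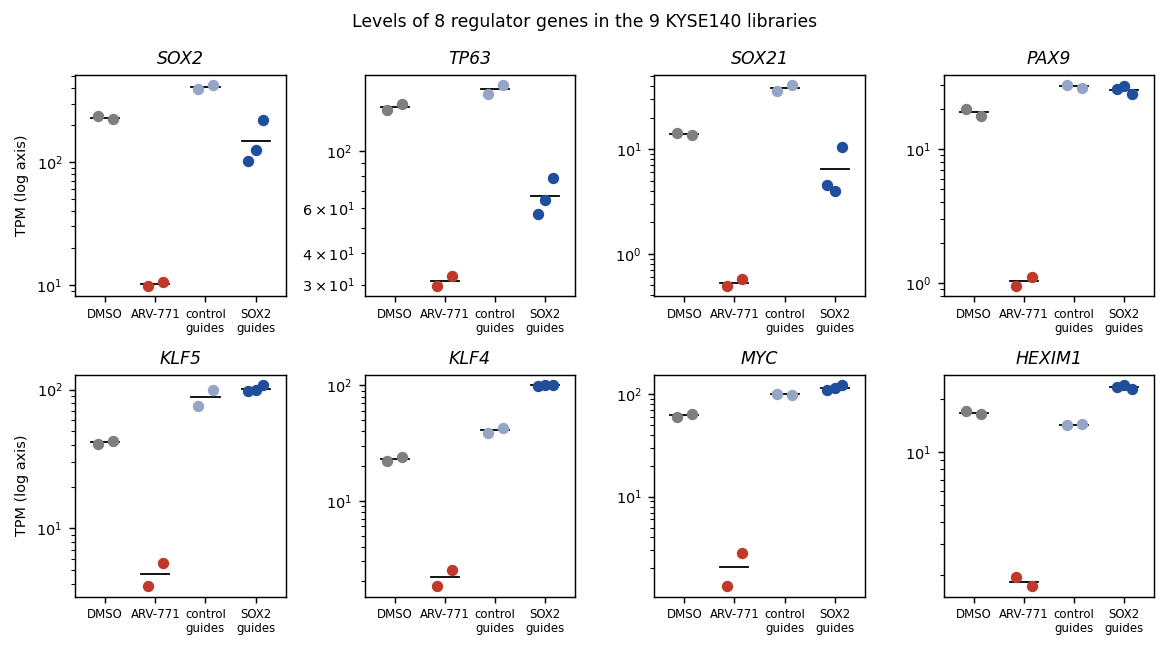
Levels of 8 regulator genes in each of the 9 libraries (TPM, log axis), 1 point a library, with a line at the mean of each group. SOX2, TP63 and SOX21 are low in both treated groups, PAX9, KLF5 and MYC are low only under ARV-771 (1.33 and 2.79 TPM for MYC), and KLF4 and HEXIM1 are low under ARV-771 and high with SOX2 guides.

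Among 26 squamous lineage regulators, 22 fell and 1 rose under ARV-771, with a median effect of -2.30 against 0.05 over all genes tested, and 22 to 25 fell under each of the 5 scalings. In the knockout 7 fell, 11 rose and the median was 0.17. All 7 that fell in the knockout also fell under ARV-771, while 7 of the 11 that rose in the knockout fell under ARV-771. A further 8 fell under ARV-771 only. PAX9, a factor of esophageal epithelium, was at 19.9 and 17.8 TPM with DMSO, 0.95 and 1.12 TPM under ARV-771, 30.3 and 28.6 TPM with control guides and 27.9, 29.8 and 25.8 TPM with SOX2 guides. PAX9 overlapped between SOX2 and control guides, and the difference of its effects was -3.42 (SE 0.15). KLF5, a factor of proliferating epithelium, fell by 2.39 (SE 0.11) on the log2 scale under ARV-771 and had a knockout effect of 0.36 (SE 0.08), below the fold change asked for.

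KLF4, GRHL3 and TFAP2A, factors linked to epithelial differentiation and barrier formation, fell under BET loss and rose after SOX2 knockout. KLF4 was at 22 and 24.1 TPM with DMSO, 1.81 and 2.53 TPM under ARV-771, 38.4 and 43.1 TPM with control guides and 98.6, 100 and 101 TPM with SOX2 guides. Neither treated group of KLF4 libraries overlapped its controls, and the difference of effects was -4.65 (SE 0.16, adjusted p 1.0e-11). GRHL3 had effects of -3.21 (SE 0.17) and 1.53 (SE 0.10), and TFAP2A of -2.05 (SE 0.10) and 1.12 (SE 0.07).

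AP-1 and immediate early genes, which answer growth factor and stress signals within minutes, had a median difference of -2.92 against -0.06 over all genes tested, the lowest of the lists with TMM. With limma on log2(TPM + 1) it was -2.87, beside -2.89 for the cornified envelope list. Of 34 members with at least 10 counts in the control libraries, 26 fell and 1 rose under ARV-771, while 20 rose and 4 fell in the knockout. BHLHE40 was at 18.9 and 22 TPM with DMSO, 2.07 and 2.1 TPM under ARV-771, 37.2 and 40.7 TPM with control guides and 118, 119 and 121 TPM with SOX2 guides. FOSL2, an AP-1 subunit, was at 31.1 and 31.9 TPM with DMSO and at 2.56 and 1.93 TPM under ARV-771. With control guides FOSL2 was at 28.1 and 35.3 TPM and with SOX2 guides at 46.6, 61 and 57.7 TPM. PHLDA1, with shared reads, had effects of -3.06 (SE 0.13) and 1.05 (SE 0.08).

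Further named genes of the opposite class were RND3, CLDN4 and SNAI2. RND3, a protein that loosens actin fibres, was at 33.1 and 34.8 TPM with DMSO, 1.36 and 1.49 TPM under ARV-771, 54.9 and 53 TPM with control guides and 155, 154 and 156 TPM with SOX2 guides. The difference of its effects was -5.27 (SE 0.13). CLDN4, a tight junction protein whose reads were shared in part, was at 37.8 and 40.8 TPM with DMSO and 6.61 and 6.64 TPM under ARV-771. CLDN4 was at 107 and 108 TPM with control guides and 951, 927 and 912 TPM with SOX2 guides, with no overlap. SNAI2, a factor of epithelial mobility, had effects of -1.14 (SE 0.11) and 1.55 (SE 0.09).

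Several stress and inflammatory regulators moved apart in the same way. Of 15 cytokine and NF-kappaB genes, 8 fell and 1 rose under ARV-771, and 9 rose and 2 fell in the knockout. TNFAIP3, a brake on NF-kappaB, was at 1.39 and 1.82 TPM with DMSO, 0.24 and 0.72 TPM under ARV-771, 9.75 and 13.7 TPM with control guides and 57.2, 66.3 and 63.5 TPM with SOX2 guides. NFKBIA, the inhibitor of NF-kappaB, had effects of -1.31 (SE 0.08) and 0.88 (SE 0.07). Among 27 interferon-stimulated genes, 17 rose and 2 fell in the knockout, whereas 13 rose and 5 fell under ARV-771. The 13 rises became 1 with library size only and 0 when scaled to mitochondrial genes. With TMM the median difference of the 27 was -0.1 against -0.06 over all genes tested. Of the 41 members tested, 10 rose in both and 11 rose in the knockout alone with TMM. The opposite class, which fell under ARV-771 and rose in the knockout, held 4. IRF1, an interferon response factor with partly shared reads, was at 9.96 and 6.6 TPM with DMSO, 0.31 and 0.25 TPM under ARV-771, 10.2 and 9.03 TPM with control guides and 32.3, 37.8 and 40.6 TPM with SOX2 guides. IRF9, likewise with shared reads, had effects of -2.01 (SE 0.33) and 2.77 (SE 0.19).

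Among ATF4 and amino acid genes, 11 of 37 fell and 10 rose under ARV-771, near the 26.8% and 24.0% of all genes, and 8 rose and 2 fell in the knockout. The 10 rises became 0 with library size, mitochondrial or limma scaling. With TMM the difference was called higher under ARV-771 for 16 members and lower for 11, with a median of 0.31. In this list 8 members rose under ARV-771 alone, and 6 fell under it and rose in the knockout. With library size only 5 differences were higher and 15 lower. Named members were picked by adjusted p and do not stand for the whole list. SLC38A2, a transporter of small amino acids, was at 108 and 111 TPM with DMSO, 6.58 and 6.37 TPM under ARV-771, 191 and 231 TPM with control guides and 304, 319 and 373 TPM with SOX2 guides. DDIT4, an inhibitor of mTOR signalling, had effects of -2.42 (SE 0.14) and 1.23 (SE 0.10), and CEBPB, a stress-responsive factor, of -2.64 (SE 0.18) and 1.67 (SE 0.11). In the list of CDK inhibitors and p53 targets, 13 of 25 fell and 3 rose under ARV-771, and 8 rose and 3 fell in the knockout. GADD45A, a growth arrest gene, was at 16.4 and 16.5 TPM with DMSO, 2.07 and 2.18 TPM under ARV-771, 63 and 77 TPM with control guides and 228, 240 and 250 TPM with SOX2 guides. CCND1, which codes for cyclin D1, fell by 0.70 (SE 0.06) on the log2 scale under ARV-771 and had a knockout effect of 1.45 (SE 0.05), and PLK2 had effects of -3.63 (SE 0.19) and 1.02 (SE 0.10).

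**Figure D3:**
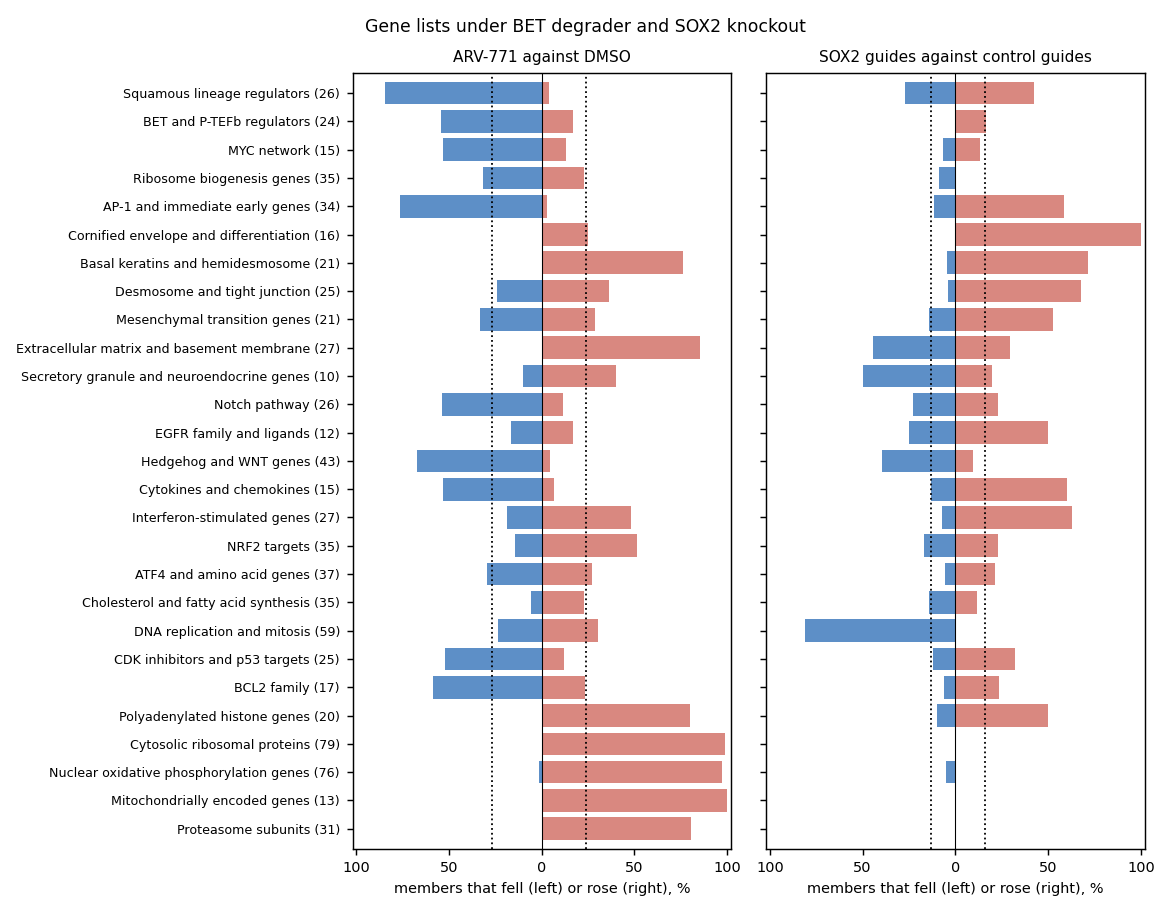
Share of members that fell (bars to the left) or rose (bars to the right) in 27 gene lists, under ARV-771 (left panel) and with SOX2 guides (right panel), in percent of the members with at least 10 counts in the control libraries (number in brackets). Dotted lines mark the shares of all genes tested, 26.8% and 24.0% under ARV-771 and 13.4% and 16.0% in the knockout, and rises under ARV-771 depend on the scaling.

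Genes lowered by BET loss alone included MYC, and regulators of transcript elongation fell under ARV-771 with or without a rise in the knockout. MYC was at 60.4 and 64.3 TPM with DMSO and 1.33 and 2.79 TPM under ARV-771. MYC was at 101 and 99.1 TPM with control guides and at 110, 114 and 123 TPM with SOX2 guides, so that its ARV-771 effect of -4.64 (SE 0.12) stood against a knockout effect of 0.44 (SE 0.06). MGA, a MYC-network repressor, had effects of -1.86 (SE 0.13) and -0.14 (SE 0.10). Of 24 BET and P-TEFb genes, 13 fell and 4 rose under ARV-771, while 4 rose and 0 fell in the knockout (0 also with DESeq2). The 4 rises in the knockout were near the 16.0% of all genes tested. In that list HEXIM1, which fell under ARV-771 and rose in the knockout and is the inhibitor of the elongation kinase P-TEFb, was at 17.1 and 16.5 TPM with DMSO, 1.95 and 1.73 TPM under ARV-771, 14.2 and 14.5 TPM with control guides and 23.6, 24.1 and 22.9 TPM with SOX2 guides. MEPCE, which caps the RNA that holds P-TEFb, fell by 2.29 (SE 0.09) on the log2 scale and had a knockout effect of 0.22 (SE 0.07). ELL2, an elongation factor in the opposite class like HEXIM1, had effects of -1.68 (SE 0.10) and 0.83 (SE 0.07).

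BRD2 RNA was at 119 and 115 TPM with DMSO, 37.5 and 39 TPM under ARV-771, 144 and 162 TPM with control guides and 179, 185 and 206 TPM with SOX2 guides. Its ARV-771 effect of -0.84 (SE 0.07) and the difference of -1.33 (SE 0.09) were called. BRD3 RNA had effects of -0.75 (SE 0.11) and -0.37 (SE 0.10), and the difference of -0.38 (SE 0.15) lay under the fold change asked for with TMM. The BRD3 difference was called, at -0.74 with library size, -1.01 with limma on log2(TPM + 1) and -1.52 with mitochondrial scaling. These values are of RNA, and the degrader acts on protein.

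Of 17 BCL2 family genes, 10 fell and 4 rose under ARV-771, and 4 rose and 1 fell in the knockout. The 4 rises under ARV-771 were near the 24.0% of all genes tested. MCL1, an inhibitor of cell death with a short-lived RNA, was at 73.4 and 81.5 TPM with DMSO, 6.37 and 6.58 TPM under ARV-771, 124 and 134 TPM with control guides and 159, 166 and 166 TPM with SOX2 guides. In the opposite class, BCL2L1, an inhibitor of cell death, had effects of -0.75 (SE 0.08) and 0.95 (SE 0.07), and PMAIP1, a promoter of cell death, of -1.15 (SE 0.22) and 1.34 (SE 0.13). SOX4, another SOX factor, was at 64.2 and 66.7 TPM with DMSO and 4.85 and 4.81 TPM under ARV-771. SOX4 was at 47.6 and 48.1 TPM with control guides and 38.4, 38 and 41 TPM with SOX2 guides, a knockout effect of -0.08 (SE 0.06). AJUBA, a scaffold of cell junctions, had effects of -2.38 (SE 0.07) and 0.32 (SE 0.06). DKK1, a secreted WNT antagonist, fell from 51.1 and 44.2 TPM to 2.1 and 0.85 TPM under ARV-771, with effects of -4.93 (SE 0.15) and -0.19 (SE 0.07). WNT7B, a WNT ligand with partly shared reads, had effects of -1.72 (SE 0.09) and 0.16 (SE 0.08).

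Genes raised by ARV-771 alone on the TMM scale were short and abundant. All 1943 kept their class with RLE factors, but 181 did when scaled to library size, 15 when scaled to mitochondrial genes and 11 of 1908 by limma. They included 78 of 79 cytosolic ribosomal protein genes, 13 of 13 mitochondrially encoded genes and 69 of 76 nuclear oxidative phosphorylation genes. In the knockout, 0 of the 79 ribosomal protein genes rose or fell with edgeR and TMM, and 2 fell with library size only. RPL11 was at 2620 and 2710 TPM with DMSO, 3690 and 3640 TPM under ARV-771, 2160 and 2120 TPM with control guides and 1710, 1740 and 1830 TPM with SOX2 guides. Its ARV-771 effect was 1.30 (SE 0.05) with TMM and 0.20 with mitochondrial scaling. RPL8, SNRPD2 and LSM4, the latter a pair of splicing factors, had ARV-771 effects of 1.15 (SE 0.05), 1.26 (SE 0.06) and 1.14 (SE 0.06). The number of ribosomal protein genes called as risen was 47 with library size only and 0 when scaled to mitochondrial genes or by limma on log2(TPM + 1), and 66 of the 79 had shared reads. The median transcript length of the 1943 genes of this class was 1455 bases and their median level in the control libraries 76.4 TPM, against 2216 bases and 14.7 TPM over all genes tested. The 2421 genes lowered by ARV-771 alone had a median of 2780 bases and 12.3 TPM.

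**Figure D4:**
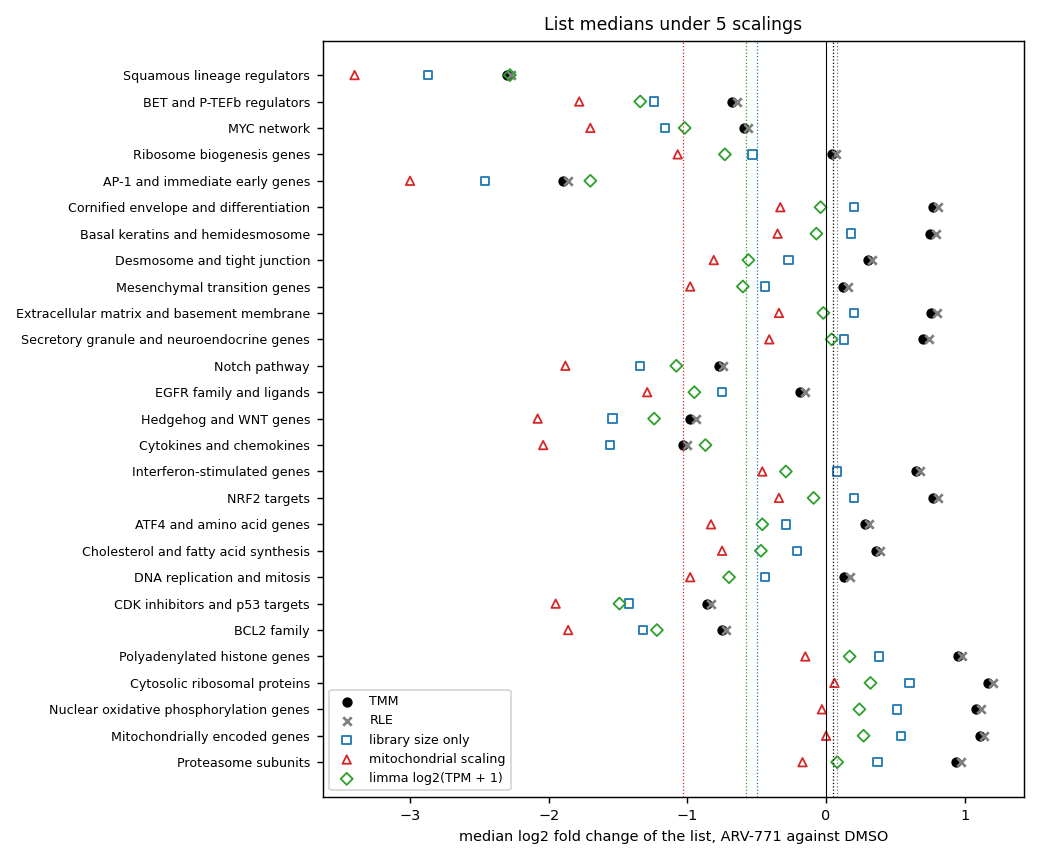
Median ARV-771 effect (log2 fold change against DMSO) of the 27 gene lists under 5 scalings, 1 symbol a scaling, with a dotted line at the median of all genes tested. The squamous lineage regulators lie at -2.30 with TMM and left of 0 on every scale. The ribosomal, mitochondrial and proteasome lists lie right of 0 with TMM and near 0 with mitochondrial scaling, where the median of all genes tested was -1.03.

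Genes that rose in both were few with library size, mitochondrial or limma scaling. Of the 414, 51 (12.3%) had the same class when scaled to library size and 20 (4.83%) when scaled to mitochondrial genes. TXNIP, which binds thioredoxin, is an example that rose on each of the 5 scales. It was at 10.5 and 10.1 TPM with DMSO, 56.1 and 60.3 TPM under ARV-771, 24.6 and 24.8 TPM with control guides and 65, 62 and 71.2 TPM with SOX2 guides. Its effects were 3.25 (SE 0.09) and 1.60 (SE 0.08), and 2.14 under ARV-771 with mitochondrial scaling. HIST1H2BK, a polyadenylated histone gene with shared reads, had effects of 1.56 (SE 0.09) and 1.53 (SE 0.08). TAGLN2, an actin-binding protein, shows the dependence on scale. TAGLN2 was at 891 and 891 TPM with DMSO and 1000.0 and 1020 TPM under ARV-771, an effect of 1.02 (SE 0.06) with TMM and 0.19 with limma on log2(TPM + 1). In the knockout TAGLN2 was at 1480, 1460 and 1460 TPM against 945 and 920 TPM. B2M, the light chain of MHC class I, and LGALS1, a galectin, had ARV-771 effects of 1.17 (SE 0.08) and 1.12 (SE 0.08) with TMM and 0.28 and 0.27 with limma on log2(TPM + 1). The difference of effects for LGALS1, -0.53 (SE 0.12), lay under the fold change asked for with TMM. It was called without control guide AAVS1 or without SOX2 guide 4 (-0.61 each), and for LGALS1 was -0.89 with library size, -1.15 with limma and -1.69 with mitochondrial scaling, all called.

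Several secreted and matrix genes fell in the knockout and did not fall under ARV-771 with TMM. Of 27 extracellular matrix genes, 12 fell and 8 rose in the knockout. Under ARV-771 23 rose and 0 fell with TMM, and 1 rose with library size only. With mitochondrial scaling 0 rose and 3 fell, beside 61.8% of all genes tested that fell on that scale. SCG2, a secretory granule protein, was at 77.8 and 73.1 TPM with DMSO, 110 and 105 TPM under ARV-771, 159 and 136 TPM with control guides and 0.9, 0.49 and 0.67 TPM with SOX2 guides. Its difference of effects, 8.77 (SE 0.17), was the largest among the genes named here. COL15A1, a basement membrane collagen, was at 43.1 and 42 TPM with DMSO, 50.3 and 49.5 TPM under ARV-771, 45.5 and 51.4 TPM with control guides and 0.98, 0.37 and 0.79 TPM with SOX2 guides. FREM2, a basement membrane protein, and GPC3, a cell surface proteoglycan, fell by 4.64 (SE 0.12) and 3.04 (SE 0.10) on the log2 scale in the knockout. CXCL14, an epithelial chemokine, was at 3640 and 3750 TPM with DMSO, 3290 and 3200 TPM under ARV-771, 911 and 902 TPM with control guides and 80.7, 72.1 and 71.4 TPM with SOX2 guides. The DMSO libraries thus held more CXCL14 than the libraries with control guides. CHGB, a granule protein with partly shared reads, and COL18A1 had knockout effects of -5.11 (SE 0.13) and -1.76 (SE 0.07).

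The call of a rise under ARV-771 for most of these genes rested on TMM or RLE. Of the 591 genes that rose under ARV-771 and fell in the knockout, 27 remained in the class when scaled to library size and 3 when scaled to mitochondrial genes. The leading genes of the class were DKK3, a secreted glycoprotein, and OXCT1, LDHB and PRDX2, which act in ketone use, lactate metabolism and peroxide removal. DKK3 was at 267 and 272 TPM with DMSO, 322 and 314 TPM under ARV-771, 199 and 190 TPM with control guides and 57, 61.9 and 74.7 TPM with SOX2 guides. OXCT1, LDHB and PRDX2 had knockout effects of -1.51 (SE 0.06), -0.97 (SE 0.05) and -1.08 (SE 0.06). CDH2, which codes for N-cadherin, was at 54.3 and 57.6 TPM with DMSO, 64.5 and 64.5 TPM under ARV-771, 77.6 and 80.9 TPM with control guides and 15.1, 17.2 and 22.6 TPM with SOX2 guides.

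DNA replication and mitosis genes followed SOX2 knockout. Of 59 members, 48 fell and 0 rose in the knockout (0 also with DESeq2), with a median of -0.82. Under ARV-771 18 rose and 14 fell with TMM, beside 24.0% and 26.8% of all genes tested. When scaled to library size 0 rose and 27 fell, where 41.8% of all genes tested fell. Mitochondrial scaling gave 0 rises and 41 falls, where 61.8% of all genes tested fell. Over the scalings 47 to 55 fell in the knockout. MCM2, a subunit of the replicative helicase, was at 143 and 141 TPM with DMSO, 125 and 121 TPM under ARV-771, 124 and 120 TPM with control guides and 51.4, 52.7 and 55.8 TPM with SOX2 guides. MYBL2, a cell cycle factor, and MCM7, a further helicase subunit, had knockout effects of -1.03 (SE 0.07) and -0.85 (SE 0.06). A few replication initiators fell in both. MCM10 was at 26.6 and 28.8 TPM with DMSO, 8.14 and 7.46 TPM under ARV-771, 35.4 and 31.9 TPM with control guides and 13.8, 18.4 and 25.1 TPM with SOX2 guides, and CDT1, with shared reads, had effects of -1.04 (SE 0.08) and -0.88 (SE 0.07).

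Genes of the cornified envelope, the outer shell of differentiated squamous cells, were raised by SOX2 knockout, and the difference of effects was called, lower under ARV-771, for 13 of 16 members. Of 48 members, 43 were tested and 16 had at least 10 counts in the control libraries. All 16 rose in the knockout, with a median of 3.22, and 15 or 16 rose on each scale. Under ARV-771 4 of the 16 rose and 0 fell with TMM, and 4 fell with mitochondrial scaling, where 61.8% of all genes tested fell. SCEL, a precursor of the envelope, was at 2.51 and 2.26 TPM with DMSO, 2.04 and 2.47 TPM under ARV-771, 4.86 and 6.24 TPM with control guides and 166, 149 and 128 TPM with SOX2 guides. ARV-771 and DMSO libraries overlapped for SCEL, whose call under ARV-771 (0.79, adjusted p 0.0137) was lost without ARV-771 culture B (0.69) and without DMSO culture A (0.77). PPL, which codes for periplakin, had effects of 0.34 (SE 0.08) and 1.88 (SE 0.08), and ECM1 of 1.38 (SE 0.32) and 3.24 (SE 0.16).

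Further genes raised by the knockout alone with TMM included SDC4, DSC2, KRT19 and KRT14. Of the 740 genes of this class, 429 kept it with library size only, 192 with mitochondrial scaling and 315 of 661 by limma. SDC4, a syndecan, was at 18.1 and 17 TPM with DMSO, 10.6 and 11 TPM under ARV-771, 19.1 and 21.8 TPM with control guides and 113, 121 and 118 TPM with SOX2 guides. DSC2, a desmosomal cadherin, and KRT19, a keratin of simple and basal epithelium, had knockout effects of 2.70 (SE 0.09) and 2.04 (SE 0.06). Under ARV-771 SDC4 and DSC2 were called as falls with limma on log2(TPM + 1) (-0.65 each) and with mitochondrial scaling (-0.94 and -0.97). The ARV-771 effect on KRT19, 0.54 (SE 0.06), passed the fold change asked for without ARV-771 culture A (0.59), and was -0.57 with mitochondrial scaling. KRT14, a basal keratin with shared reads, was at 84.1 and 89.4 TPM with DMSO, 62.4 and 66.5 TPM under ARV-771, 156 and 149 TPM with control guides and 2640, 2420 and 1930 TPM with SOX2 guides. With mitochondrial scaling the ARV-771 effect on KRT14 was a called fall (-0.70). TNC and CD44, genes of adhesion and wound repair that rose in both with TMM, had knockout effects of 2.04 (SE 0.08) and 1.56 (SE 0.06). Their ARV-771 effects of 0.78 and 0.84 with TMM were -0.33 and -0.27 with mitochondrial scaling, and TNC and CD44 libraries overlapped between ARV-771 and DMSO in TPM.

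TGFA, a ligand of the EGF receptor, and NOTCH2, with shared reads, had knockout effects of 1.92 (SE 0.10) and 1.34 (SE 0.08) and ARV-771 effects of -0.18 (SE 0.16) and -0.09 (SE 0.09) with TMM. Both were called as falls under ARV-771 on other scales, TGFA at -0.74 with library size, -0.95 with limma and -1.28 with mitochondrial scaling, and NOTCH2 at -0.66, -0.81 and -1.20. SAMD9, an interferon-stimulated gene, was at 1.26 and 1.03 TPM with DMSO, 0.43 and 0.45 TPM under ARV-771, 2.69 and 3.95 TPM with control guides and 61.5, 55 and 49 TPM with SOX2 guides.

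Genes lowered by the knockout alone with TMM included antioxidant enzymes. Of the 704 genes of this class, 436 kept it with library size only, 50 with mitochondrial scaling and 187 of 639 by limma. AKR1C3, an aldo-keto reductase with shared reads, was at 172 and 167 TPM with DMSO, 126 and 139 TPM under ARV-771, 75.4 and 84.4 TPM with control guides and 0.8, 1.25 and 1.88 TPM with SOX2 guides. The ARV-771 effect on AKR1C3 was 0.49 with TMM and -0.62, a called fall, with mitochondrial scaling. GSR, which codes for glutathione reductase, was at 71.3 and 72 TPM with DMSO, 54.5 and 53 TPM under ARV-771, 85.6 and 91.5 TPM with control guides and 18.5, 17.4 and 24.1 TPM with SOX2 guides. The NRF2 target list as a whole was mixed, with 8 of 35 members risen and 6 fallen in the knockout, against 16.0% and 13.4% of all genes tested. DYNC1I1, a dynein intermediate chain, GPC4, a proteoglycan, and TMTC4, an O-mannosyltransferase, fell by 3.07 (SE 0.12), 2.13 (SE 0.08) and 2.22 (SE 0.10) on the log2 scale in the knockout. Their ARV-771 effects were 0.32 (SE 0.09), 0.52 (SE 0.08) and 0.49 (SE 0.08) with TMM. With mitochondrial scaling they were -0.79, -0.58 and -0.61, and DYNC1I1 and TMTC4 were called as falls. The ARV-771 effect on GPC4 with TMM passed the fold change asked for without ARV-771 culture B (0.60).

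A second way of lowering SOX2 gave values that the response classes did not use. In 4 further KYSE140 libraries, CRISPR interference, an inactive Cas9 fused to repressors, was guided to the SOX2 enhancer e1 (2 libraries) or carried negative-control guides (2 libraries). Of 13792 genes tested there, 1283 rose (9.30%) and 1481 fell (10.7%). Among genes that fell in both effects, 39.6% fell with e1 guides and 1.28% rose. Among genes lowered by ARV-771 alone, 4.24% fell and 5.41% rose, both below the shares of all genes. Among genes raised by ARV-771 alone, 8.23% fell and 1.21% rose. These 2 classes leave out by definition every gene called in the knockout, so low shares here are no separate result. Of genes with no class, 6.76% fell and 6.51% rose. Among genes lowered by the knockout alone, 44.4% fell, and among those raised by the knockout alone, 49.4% rose.

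Where the effects had opposite signs, genes called with e1 guides mostly had the sign of the knockout, although most genes were not called. Of genes that fell under ARV-771 and rose in the knockout, 36.4% rose and 3.74% fell with e1 guides. Of genes that rose under ARV-771 and fell in the knockout, 47.6% fell and 0.345% rose. GRHL3 was an exception and fell with e1 guides (-0.80), while KLF4 (0.23) and TFAP2A (0.51) lay under the fold change asked for. Of 26 squamous lineage regulators, 6 rose and 10 fell with e1 guides, against 11 risen and 7 fallen in the knockout. AP-1 and immediate early genes rose in 21 of 34 cases with e1 guides and fell in 0 (edgeR). DNA replication and mitosis genes departed from this, with 1 of 59 fallen and 0 risen with e1 guides against 48 fallen in the knockout. MYC rose with e1 guides (log2 fold change 0.97) and JAG1 rose (0.64), while TP63, SOX21 and PCDH18 fell (-0.62, -2.27 and -4.11). KRT19, raised by the knockout, fell with e1 guides (-1.07).

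**Figure D5:**
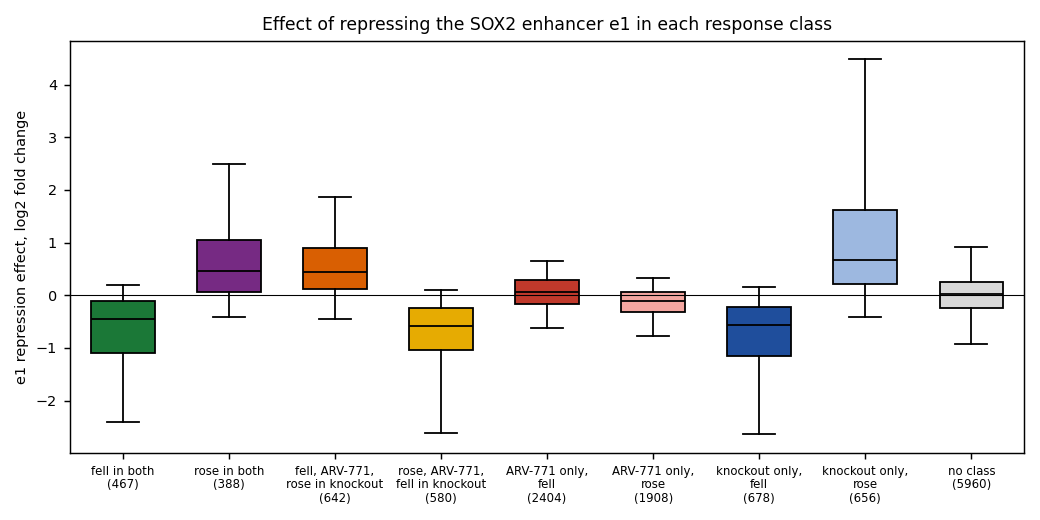
Effect of e1 repression (log2 fold change against negative-control guides, vertical axis) in each response class, with the number of genes tested in brackets. Boxes span the quartiles with a line at the median and whiskers reach the 5th and 95th percentiles. Genes lowered or raised by the knockout, alone or with ARV-771, have medians of the knockout's sign (-0.57 for those lowered and 0.66 for those raised by the knockout alone). Genes particular to ARV-771, by definition not called in the knockout, have medians near 0.

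Genes that moved with one sign in both the knockout and e1 repression were then read under ARV-771. Of 812 that fell in both, 22.8% fell and 34.0% rose with TMM, against 26.8% and 24.0% of all genes tested. The excess of rises turned round on other scales, to 1.35% against 2.44% of all genes with library size, 0.00% against 0.438% with mitochondrial scaling and 0.133% against 0.496% with limma. With library size only 37.8% fell against 41.8% of all genes, and with mitochondrial scaling 56.8% against 61.8%. Of 858 that rose in both, 27.3% fell and 17.8% rose under ARV-771 with TMM.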

How the data were processed

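RNA of KYSE140 cells was sequenced from poly-A, directional libraries. The deposited tables, 1 per library, hold expected counts and TPM, which the authors made by aligning reads to hg19 with Bowtie2 and estimating reads per GENCODE gene with RSEM (versions not given in the sources used here). Expected counts share reads among similar genes, and 7.41% to 9.09% of genes per library had counts that were not whole. TPM values as deposited are scaled to a fixed total within each library. Libraries held 7260730 to 13556938 counts, so that 3 counts equal 0.221 to 0.413 CPM. These floors cover counting error only.

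Expected counts were rounded and fitted with edgeR 4.0.16 (R 4.3.3), with filterByExpr (minimum count 10, total 15), TMM factors and the quasi-likelihood test, in a single model of 9 libraries with a mean per group. The ARV-771 effect, the knockout effect and their difference were contrasts of that model, and p-values were adjusted over all 14612 genes. The enhancer e1 libraries were fitted apart. The code was run on simulated data where few genes changed, with rises and falls balanced. This could not test the choice of scaling. Genes were sorted into 8 classes. Named genes were SOX2 and 7 fixed genes, 4 genes per class with the smallest adjusted p, and up to 4 plus 2 members per list by adjusted p of the difference and of shared calls. From these a subset was described.

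The members and gene lists were chosen with earlier results of these data known. Alternatives were DESeq2 1.42.0, RLE factors, library size only, mitochondrial scaling, limma 3.58.1 on log2(TPM + 1) and log2(TPM + 0.1), other filters and fold limits, a block and leaving out each library. Culture letters of ARV-771 and DMSO, and guide numbers of e1 and control, were not used to pair libraries in the main fits. The labels do not say whether a letter marks a shared culture. Libraries of the SKMES1 line were not used, and certain items are not reported here. Promoter letters are from RefSeq on GRCh38.p14.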

Additional observations from a re-analysis of the deposited data

How the results depend on the processing

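The calls of a rise under ARV-771 depended on the scaling. The 3502 genes that rose became 356 with library size only, 64 with mitochondrial scaling and 69 and 75 by limma at pseudocounts of 1 and 0.1 TPM, and the 3918 that fell became 6103, 9035, 6350 and 6586. In the same order of settings, genes that fell in both went from 469 to 1219, 1035, 1044 and 1065, genes that rose in both from 414 to 51, 21, 19 and 29, genes that rose under ARV-771 and fell in the knockout from 591 to 52, 3, 8 and 6, genes raised by ARV-771 alone from 1943 to 183, 16, 28 and 23, and differences called higher from 3822 to 2393, 472, 1252 and 1250. Genes lowered by ARV-771 alone went from 2421 to 5780 with mitochondrial scaling and to 3732 and 3928 with limma. Mitochondrial scaling gave 8724 differences called lower, 1388 genes that fell under ARV-771 and rose in the knockout and 358 lowered by the knockout alone. With library size only 3152 genes fell in the knockout and 1408 fell in the knockout alone, and 1444 and 1389 rose in it with limma. The cause was not tested.

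A 2-fold limit left 1106 rises under ARV-771, 1471 rises and 988 falls in the knockout, 2386 differences called higher, 168 genes fallen in both, 116 risen in both, 259 fallen under ARV-771 and risen in the knockout, 83 of the reverse and 619 raised by ARV-771 alone. With no minimum fold change 3932 genes rose and 3696 fell in the knockout, and the shared and opposite classes held 1000, 1234, 1370 and 1796 genes.

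Among named genes with a call in at least 1 of the fits compared, the ARV-771 effect changed sign with mitochondrial scaling to -0.09 for TAGLN2, -0.33 for TNC, -0.27 for CD44, -0.05 for LDHB, -0.09 for DKK3, -0.05 for PRDX2, -0.26 for CHGB, -0.46 for CXCL14, -0.04 for COL15A1, -0.38 for FREM2, -0.13 for COL18A1, -0.08 for CDH2, -0.48 for MCM2, -0.22 for MYBL2, -0.36 for MCM7, -0.79 for DYNC1I1, -0.61 for TMTC4, -0.94 for SDC4, -0.97 for DSC2, -0.70 for KRT14, -0.76 for PPL, -0.31 for SCEL and -0.62 for AKR1C3. It also changed sign with limma on log2(TPM + 1) to -0.19 for CXCL14, -0.10 for FREM2, -0.20 for MCM2, -0.09 for MCM7, -0.65 for SDC4, -0.65 for DSC2 and -0.06 for SCEL, and on log2(TPM + 0.1) to -0.19 for CXCL14, -0.11 for FREM2, -0.21 for MCM2, -0.09 for MCM7, -0.69 for SDC4, -0.69 for DSC2 and -0.08 for SCEL. The difference of effects changed sign with mitochondrial scaling to -1.11 for IFRD1, -0.97 for LFNG, -1.06 for LGR4, -0.98 for BCL2, -1.0 for TAGLN2, -1.04 for B2M and -1.13 for HIST1H2BK, and for HIST1H2BK with limma to -0.65 at either pseudocount. Values called in neither fit changed sign too, among them GSR (-0.57 with mitochondrial scaling and -0.41 with limma on log2(TPM + 1)), GPC4 (-0.58 and -0.31) and KRT19 (-0.57 and -0.29), and with limma KRT14 (-0.42), PPL (-0.51), DYNC1I1 (-0.47), TMTC4 (-0.46) and AKR1C3 (-0.35).

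Leaving out each library in turn moved no count by over 1.5 times, where a lone library is assumed to vary like the other groups. Under ARV-771 3233 to 3648 genes rose and 3641 to 3953 fell, in the knockout 2064 to 2357 rose and 1747 to 2032 fell, and 3599 to 3893 differences were higher and 4046 to 4384 lower. The classes in the order of the text held 414 to 495, 342 to 454, 576 to 656, 514 to 637, 2246 to 2443, 1843 to 2063, 633 to 745 and 654 to 753 genes, and with e1 guides 1169 to 1325 rose and 1253 to 1556 fell. The SOX21 difference, -1.48, was lost without ARV-771 culture A (-1.37) or B (-1.56), with DESeq2 (-1.45) and with limma on log2(TPM + 1) (-0.76). Deviations of libraries with the same culture letter correlated at -0.05 over 11089 genes and those with the same e1 guide number at 0.02 over 11145. A replicate block of the letters gave 3476 rises and 3890 falls under ARV-771, 2312 and 1928 in the knockout and 3799 and 4313 differences, and a block of the guide numbers gave 1308 and 1499 with e1 guides.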
